A study of Homo sapiens with 9 samples.

Results

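The levels of 10 genes of blood clotting were followed through the human hepatocellular carcinoma line HuH-7: the fibrinogen chains FGA, FGB and FGG, the coagulation factors F2, F5, F7, F10 and F12, the inhibitor SERPINC1, and plasminogen (PLG). They were chosen by symbol among the 63677 gene identifiers of the count tables, with earlier results of these data known. Counts of the 10 set beside the share of all genes thus describe them and do not test the set. All 10 passed the filter on low counts, which kept 18237 genes in all. HuH-7 is an established, hepatocyte-derived tumour line that secretes many plasma proteins. Acetaminophen (10 mM) was given alone, with serum exosomes (those of 1 ml of serum) or with caffeine (2 mM), and the exosomes and caffeine were also given alone. Arsenic was given at 5 µM, at 15 µM, and at 5 µM together with copper (5 µM), and 1 culture was left untreated as the control. Each of the 9 conditions is 1 library of ribosomal RNA-depleted total RNA read on an Ion Torrent Proton, so no condition has a replicate. The model has its own limits: this is 1 tumour line without the other cells of the liver, and neither how long the cells were exposed nor where the serum came from is stated in the labels.

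The liver makes nearly all of the clotting proteins in plasma. In the common pathway, activated factor X with factor V as its cofactor cuts prothrombin (F2) to thrombin, and thrombin cuts fibrinogen, which is built from pairs of Aα, Bβ and γ chains, into fibrin. Factor VII starts the tissue factor arm, factor XII the contact arm, antithrombin (SERPINC1) blocks thrombin and activated factor X, and plasminogen is the precursor of plasmin, which dissolves the clot. The fibrinogen genes sit side by side and are classical acute-phase genes of the hepatocyte, driven by interleukin-6 signalling on top of liver transcription factors such as C/EBP.

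The libraries held 658725 (acetaminophen with exosomes) to 8227906 (caffeine) counts on genes, and 951816 in the control. The share of counts on small nucleolar RNA genes was 35.53% with arsenic at 5 µM and 11.52% with acetaminophen, against 3.411% to 8.348% in the other libraries. These libraries stand apart, and the part of their make-up in the results was not tested. Levels are read counts scaled to a common library size by the TMM method (CPM). All 10 hepatocyte markers had counts in each library, with a summed level of 9454 CPM (arsenic at 15 µM) to 27957 CPM (acetaminophen) and of 21238 CPM in the control. The 6 platelet markers summed to 0.426 to 3.17 CPM, with PF4 and PPBP at 0 counts throughout, the 4 endothelial markers to 0 to 1.4965 CPM and the 5 blood cell markers to 0 to 5.81 CPM.

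Conditions were compared in a model and library against library. An additive edgeR quasi-likelihood model over all 9 libraries gave 1 coefficient each for acetaminophen, exosomes, caffeine and arsenic. The 3 arsenic libraries entered it as 1 level, without their dose or copper. Its spread thus came from departures from additivity and from differences between these arsenic libraries. P-values were adjusted over 18237 genes. Library pairs were also compared by the ratio of their levels with an exact binomial 95% interval. A gene was counted as apart where the ratio was at least 2 either way and the interval excluded 1. The reads carry no molecular tags, so these intervals cover counting error alone and not the variation between cultures. In RNA from a whole culture, fewer expressing cells and less RNA per cell cannot be told apart.

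In the untreated control, the clotting genes spanned a wide range of levels per kilobase of exon. FGB stood first at 284 CPM per kilobase, followed by FGA at 129 and F2 at 116, whose counting intervals overlapped. FGG followed at 64.0 CPM per kilobase, SERPINC1 at 26.8 and F10 at 16.4, and the last pair overlapped. F5 at 6.35 CPM per kilobase, F7 at 3.31, PLG at 1.67 and F12 at 0.349 came last, and each overlapped with its neighbour. F12 rested on 1 count there, while FGB had 795.

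**Figure D1:**
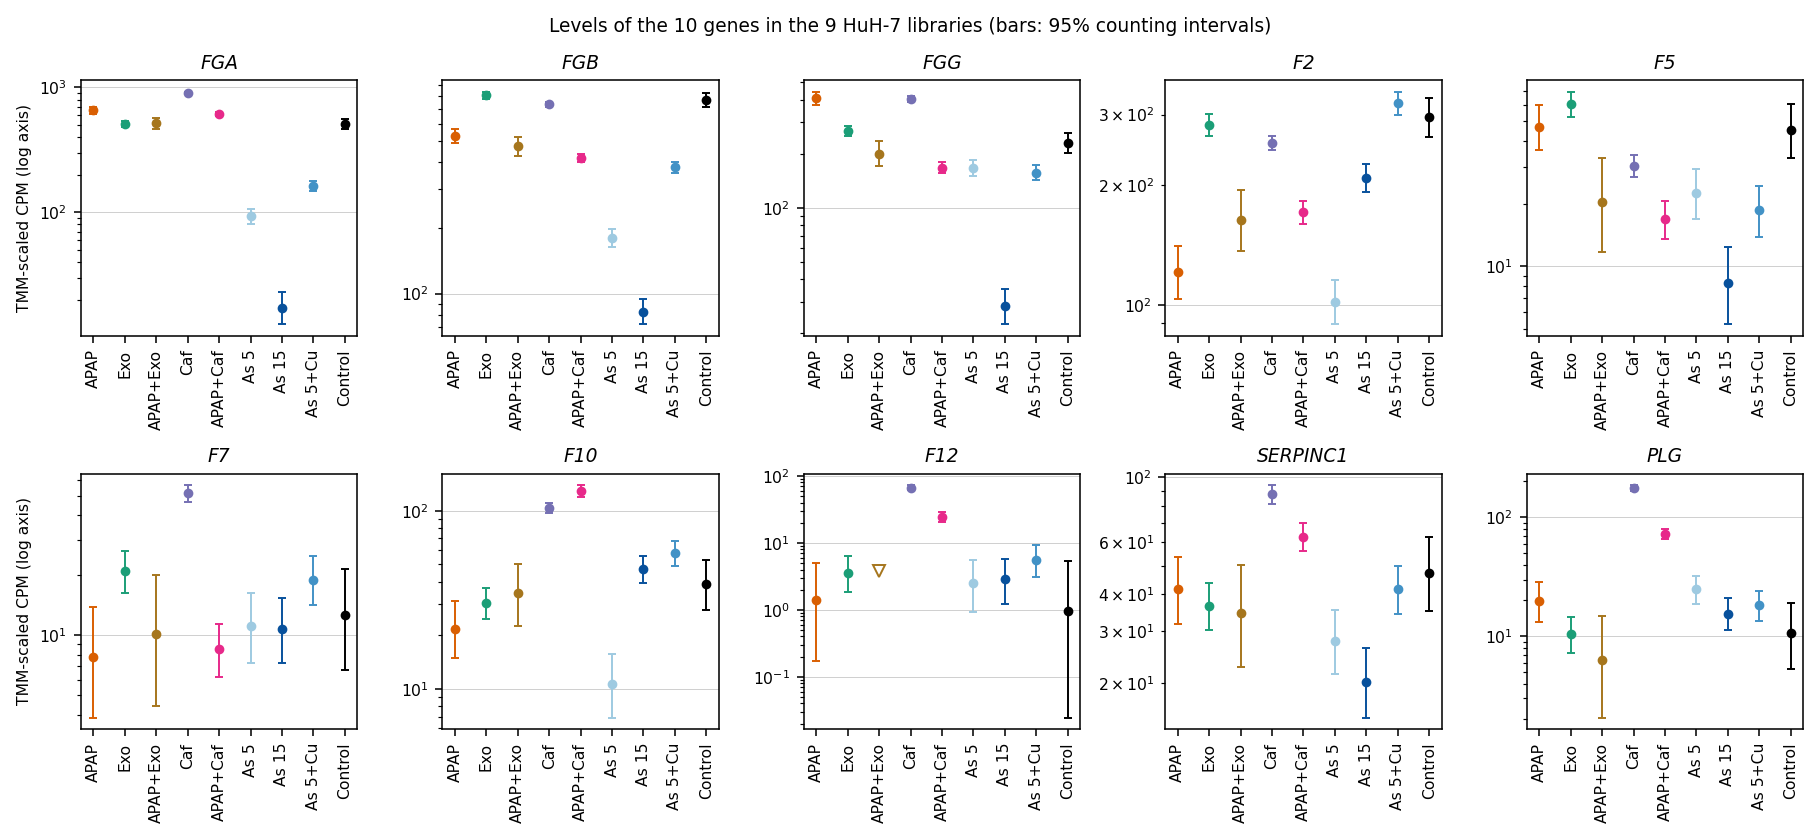
Level of each of the 10 genes in the 9 libraries (1 point per library, CPM on a log axis, bars 95% counting intervals; APAP acetaminophen, Exo exosomes, Caf caffeine, As arsenic in µM, Cu copper; open triangle the level of 3 counts where F12 had 0). FGA is lowest at 17.3 CPM with arsenic at 15 µM, and F12 and PLG are highest in the caffeine library at 66.9 and 177 CPM.

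Under arsenic the fibrinogen chains lay below their control levels, FGA by the most. FGA, the Aα chain, had 93.4 CPM with arsenic at 5 µM, 17.3 CPM at 15 µM and 164 CPM with arsenic and copper, against 511 CPM in the control. Its other levels were 657 CPM with acetaminophen, 509 with exosomes, 516 with both, 901 with caffeine and 612 with acetaminophen and caffeine. All 3 arsenic libraries thus lay below the 6 libraries without arsenic. At 15 µM, FGA was at 0.0338 of its control level (95% counting interval 0.0246 to 0.0454), on 48 counts. Other hepatocyte genes were also low in the arsenic libraries: of 10 markers, 8 at 5 µM, 10 at 15 µM and 9 with copper lay below their control level, and their sum was 22970, 9454 and 15224 CPM, against 21238 CPM in the control. Albumin (ALB), the largest of them, had 10855 CPM at 5 µM, 3339 CPM at 15 µM and 5024 CPM with copper, against 6809 CPM in the control. The retinol carrier RBP4 had 51.2 CPM at 5 µM, 299.9 CPM at 15 µM and 307 CPM with copper, against 672 CPM in the control. The part of these levels in the fibrinogen values was not tested.

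FGB, the Bβ chain, had 180 CPM with arsenic at 5 µM, 82.7 CPM at 15 µM and 378 CPM with arsenic and copper, against 769 CPM in the control. The other libraries held 526 (acetaminophen), 808 (exosomes), 472 (acetaminophen with exosomes), 735 (caffeine) and 418 CPM (acetaminophen with caffeine). For FGB too the arsenic libraries lay below all others. Its ratio to control was 0.108 at 15 µM (0.0924 to 0.125), 0.235 at 5 µM (0.208 to 0.264) and 0.491 with copper (0.447 to 0.540). With the trend of each library with GC content and gene length removed, the log2 ratio with copper was -0.58, against -1.02 before, and no longer 2-fold.

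FGG, the γ chain, had 167 CPM with arsenic at 5 µM, 28.4 CPM at 15 µM and 157 CPM with arsenic and copper, against 230.3 CPM in the control. Its other levels were 407 CPM (acetaminophen), 268 (exosomes), 200.2 (acetaminophen with exosomes), 404 (caffeine) and 167 CPM (acetaminophen with caffeine). Here the 15 µM library was by far the lowest, at 0.123 of control (0.0944 to 0.160). The other arsenic libraries lay close to the library of acetaminophen with caffeine. The log2 ratio of FGG at 5 µM to control was -1.01 with that trend removed, against -0.46 before, and met the 2-fold rule.

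The upstream sequences of the 3 chains are shown because all 3 chains lay below the control in each arsenic library. They are the 250 bases before the start site from RefSeq (GRCh38.p14), FGA at chr4:154590743-154590992 and FGG at chr4:154612657-154612906 on the minus strand and FGB at chr4:154562730-154562979 on the plus strand. RefSeq sequences were matched for 9 of the 10 genes. Capitals mark CTGGGA or its reverse TCCCAG, the core of the interleukin-6 response element known from fibrinogen genes.
FGA: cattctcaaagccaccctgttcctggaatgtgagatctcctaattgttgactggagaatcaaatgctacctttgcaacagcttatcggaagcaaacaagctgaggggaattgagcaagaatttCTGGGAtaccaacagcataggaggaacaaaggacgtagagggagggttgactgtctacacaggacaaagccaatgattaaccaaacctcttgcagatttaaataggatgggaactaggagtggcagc
FGB: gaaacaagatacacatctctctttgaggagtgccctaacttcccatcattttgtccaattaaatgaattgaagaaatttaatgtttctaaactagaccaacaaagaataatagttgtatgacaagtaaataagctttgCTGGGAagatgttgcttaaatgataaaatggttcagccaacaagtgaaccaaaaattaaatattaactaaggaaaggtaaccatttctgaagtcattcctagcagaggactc
FGG: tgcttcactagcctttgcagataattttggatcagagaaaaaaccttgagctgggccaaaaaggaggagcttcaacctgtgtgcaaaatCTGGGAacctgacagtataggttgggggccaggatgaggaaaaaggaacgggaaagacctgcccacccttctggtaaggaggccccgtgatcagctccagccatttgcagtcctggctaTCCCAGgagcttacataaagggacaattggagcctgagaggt
This core was found on either strand in FGA, FGB, FGG, F2, F5, F10 and PLG among the 9 genes, and in 28.7% of 34943 promoters of this length. A match is a description of the letters only, and the motifs were chosen with these sequences in view.

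**Figure D2:**
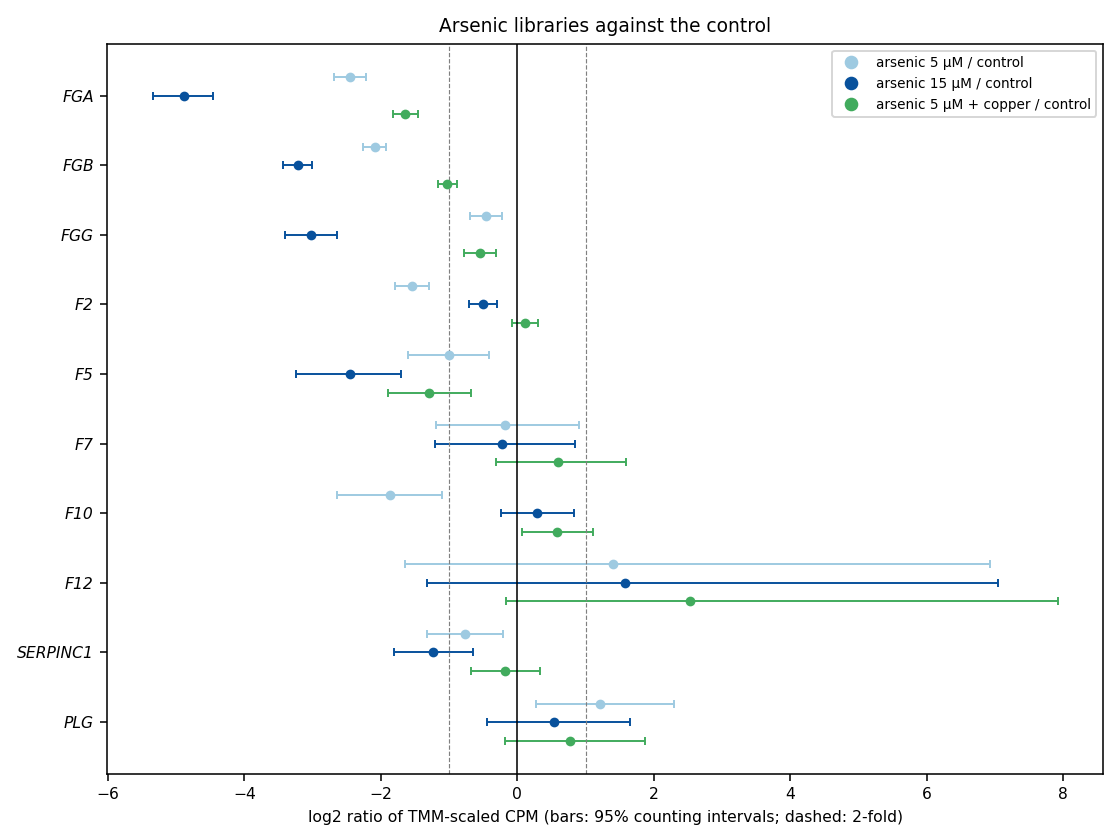
Log2 ratio of each gene in the 3 arsenic libraries (5 µM, 15 µM, 5 µM with copper) over the control (points are single libraries, 95% counting intervals as bars, dashed lines at 2-fold). FGA stands furthest below 0, at a ratio of 0.0338 with arsenic at 15 µM.

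In the additive model the arsenic coefficient, which compares the 3 arsenic libraries with the untreated level fitted from the others, was -2.71 log2 for FGA (SE 0.804, edgeR adjusted p = 0.131). That of FGB was -1.93 log2 (SE 0.756, edgeR adjusted p = 0.345) and that of FGG was -1.64 log2 (SE 0.802, edgeR adjusted p = 0.539). F5, the cofactor of factor X, had -1.94 log2 (SE 0.714, edgeR adjusted p = 0.292). So 0 of 10 genes passed the test in edgeR, against 0.494% of all tested genes. An unadjusted p under 0.05 was found for 4 of 10, against 9.17% of all tested genes. DESeq2 called 1 of 10, FGA (adjusted p = 0.0357), beside 170 over all tested genes. FGA was also called by edgeR with no count filter (adjusted p = 0.0456). Without the arsenic 5 µM library, edgeR called FGA (adjusted p = 0.00817) and F5 (adjusted p = 0.0418).

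Among the pairs, 5 of 10 genes were apart between arsenic at 5 µM and control, 1 higher and 4 lower, against 31.4% of all genes. At 15 µM, 5 of 10 were apart, all lower, against 30.8% of all genes. With arsenic and copper, 3 of 10 were apart, all lower, against 16.3% of all genes. The median log2 ratio over the 10 genes was -0.88 at 5 µM, -0.86 at 15 µM and -0.04 with copper, and that over all tested genes was 0.00, 0.00 and 0.03.

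The chains differed in how far they lay below the control. FGA made up 21.2% of the fibrinogen reads with arsenic at 5 µM (exact binomial 95% interval 18.7% to 23.8%), 13.4% at 15 µM (10.1% to 17.4%) and 23.5% with arsenic and copper (21.6% to 25.4%), against 33.8% in the control (31.5% to 36.2%). In the other libraries its share was 32.2% with exosomes, 41.3% with acetaminophen, 43.5% with acetaminophen and exosomes, 44.2% with caffeine and 51.1% with acetaminophen and caffeine. The 3 arsenic libraries therefore held the lowest FGA shares. FGB made up 64.4% of the reads at 15 µM, against 50.9% in the control, and FGG 37.9% at 5 µM, against 15.2% in the control. No replicate spread is available for these shares, and they were not corrected for the GC and length trend. With that trend removed, the log2 ratio of FGG at 5 µM to control was -1.01, against -0.46 before. The log2 ratio of FGA was -2.51, against -2.45, and that of FGB -1.99, against -2.09.

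**Figure D3:**
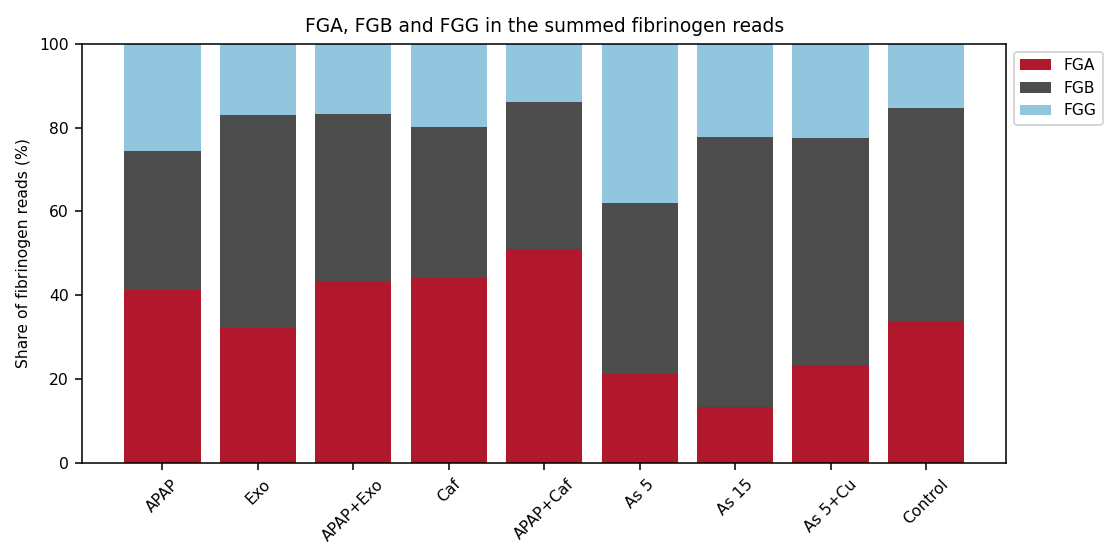
Share of fibrinogen reads from FGA, FGB and FGG in the 9 libraries (stacked bars, percent of the reads of the 3 chains, no intervals drawn). The FGA share is 13.4% with arsenic at 15 µM and 33.8% in the control.

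Among the other genes, F5 also lay below the control in all 3 arsenic libraries, with counting intervals that excluded 1. SERPINC1 lay below it too, but its interval with copper included 1. F2 and F10 did not lie below the control in all 3. F5 had 22.6 CPM with arsenic at 5 µM, 8.27 CPM at 15 µM and 18.6 CPM with copper, against 45.5 CPM in the control. Its other levels were 47.2 CPM (acetaminophen), 60.5 (exosomes), 20.4 (acetaminophen with exosomes), 30.5 (caffeine) and 16.8 CPM (acetaminophen with caffeine). The 15 µM library was the lowest of the 9, on 23 counts. Its ratio to control was 0.497 at 5 µM (0.329 to 0.752), 0.182 at 15 µM (0.105 to 0.306) and 0.409 with copper (0.269 to 0.622), and at 5 µM it met the rule for apart with the GC and length trend removed.

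F2, prothrombin, had 102 CPM with arsenic at 5 µM, 209 CPM at 15 µM and 320.0 CPM with copper, against 296 CPM in the control. The other libraries held 121 CPM (acetaminophen), 283 (exosomes), 163 (acetaminophen with exosomes), 255 (caffeine) and 171 CPM (acetaminophen with caffeine). The 2 libraries with high small nucleolar RNA shares, arsenic at 5 µM and acetaminophen, were thus the 2 lowest. F2 is GC-rich (59.5% GC), and with the GC and length trend removed its log2 ratio of arsenic at 5 µM to control was -0.42, against -1.54 before.

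F10, factor X, had 10.7 CPM with arsenic at 5 µM, 47.1 CPM at 15 µM and 57.6 CPM with copper, against 38.7 CPM in the control. For F10 the 5 µM library was the lowest of the 9, and its log2 ratio to control was -0.69 with the GC and length trend removed, against -1.83 before. SERPINC1 had 27.7 CPM at 5 µM, 20.1 CPM at 15 µM and 41.6 CPM with copper, against 47.4 CPM in the control. Its log2 ratio to control was -1.22 at 15 µM and -0.77 at 5 µM, or -0.52 and 0.07 with that trend removed. With copper the ratio of SERPINC1 was 0.878 (0.622 to 1.25), a log2 ratio of -0.19 that was 0.44 with the trend removed.

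F7 had 11.1 CPM with arsenic at 5 µM, 10.8 CPM at 15 µM and 19.0 CPM with copper, against 12.6 CPM in the control, and the counting intervals of all 3 ratios included 1. PLG had 24.7 CPM at 5 µM, 15.5 CPM at 15 µM and 18.2 CPM with copper, against 10.6 CPM in the control, and the 5 µM ratio was 2.32 (1.21 to 4.91), a log2 ratio of 1.19 that was 0.63 with that trend removed. F12 had 6 counts at 5 µM, 8 at 15 µM and 15 with copper, against 1 in the control, too few to set these libraries apart.

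Between the arsenic doses, 6 of 10 genes were apart, against 37.1% of all genes. At 15 µM FGA was at 0.185 of its 5 µM level (0.132 to 0.254), FGB at 0.458, FGG at 0.170 and F5 at 0.366, while F2 stood at 2.05 and F10 at 4.42 times it. With the GC and length trend removed, the log2 ratio of F2 was 0.07, against 1.03 before, that of FGB -0.69, against -1.12, that of FGG -1.70, against -2.55, and that of F10 1.16, against 2.12. As an extra term in the model, the 15 µM library had a coefficient of -2.90 log2 for FGA (SE 1.09, edgeR adjusted p = 0.215) and of -2.51 log2 for FGG (SE 0.990, edgeR adjusted p = 0.250). None of the 10 passed in edgeR, against 1.09% of all genes. An unadjusted p under 0.05 was found for 2 of 10, against 10.1% of all genes. DESeq2 called FGA (adjusted p = 0.0145).

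With copper added to arsenic at 5 µM, 3 of 10 genes were apart from arsenic alone, against 30.3% of all genes: FGB at 2.10 times (1.87 to 2.35), F2 at 3.14 times (2.72 to 3.64) and F10 at 5.40 times (3.53 to 8.61). With the GC and length trend removed, the log2 ratio of F2 was 0.56, against 1.65 before, and that of F10 1.33, against 2.41. The copper term called 0 of 10 genes in edgeR, against 0.00% of all genes, and 0 in DESeq2. At an unadjusted p under 0.05 in edgeR it had 0 of 10, against 2.35% of all genes. FGA stood at 1.76 times its level without copper (1.49 to 2.07), still below the control, and its log2 ratio met the 2-fold rule with the trend removed, at 1.08 against 0.81 before.

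Caffeine went with higher levels of F12 and PLG. F12, the zymogen that starts the contact arm, had 66.9 CPM with caffeine and 24.2 CPM with acetaminophen and caffeine, against 0.968 CPM in the control library, and 1.41 CPM in the acetaminophen library. The other libraries held 3.59 CPM (exosomes), 0 counts (acetaminophen with exosomes, where 3 counts would be 3.83 CPM), 2.56 (arsenic at 5 µM), 2.88 (arsenic at 15 µM) and 5.57 CPM (arsenic with copper). The counts were 570 and 128 in the 2 caffeine libraries and at most 15 in the other 7, so both caffeine libraries lay above every other. They were also the deepest libraries, with 8227906 and 5430432 counts on genes, followed by 3671322 with arsenic at 5 µM. The part of depth in these levels was not tested. The ratio of caffeine to control was 69.1, with a wide counting interval of 12.4 to 2734 because the control had 1 count.

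PLG had 177 CPM with caffeine and 72.6 CPM with acetaminophen and caffeine, against 10.6 CPM in the control library, and 19.7 CPM in the acetaminophen library. It had 10.5 CPM with exosomes and 6.38 CPM with acetaminophen and exosomes. Again the 2 caffeine libraries stood above the other 7, of which the highest was arsenic at 5 µM at 24.7 CPM. The ratio was 16.6 for caffeine over control (9.25 to 33.3) and 3.68 for acetaminophen with caffeine over acetaminophen (2.51 to 5.62).

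F10 had 104 CPM with caffeine and 129 CPM with acetaminophen and caffeine, against 38.7 CPM in the control library, and 21.8 CPM in the acetaminophen library. It had 30.2 CPM with exosomes and 34.4 CPM with acetaminophen and exosomes, so its 2 highest libraries were those with caffeine. F7 had 51.5 CPM with caffeine alone but 8.50 CPM with acetaminophen and caffeine, against 12.6 CPM in the control library, and 7.74 CPM in the acetaminophen library. With exosomes it had 21.0 CPM and with acetaminophen and exosomes 10.2 CPM, so the caffeine library was the only one above 21.0 CPM.

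SERPINC1 had 87.4 CPM with caffeine and 62.55 CPM with acetaminophen and caffeine, against 47.4 CPM in the control library, and 41.5 CPM in the acetaminophen library. With exosomes it had 36.5 CPM and with acetaminophen and exosomes 34.4 CPM. The caffeine libraries were its 2 highest, at 1.84 times the control (1.38 to 2.51) and 1.51 times the acetaminophen library (1.14 to 2.02). Its log2 ratio of caffeine to control with the GC and length trend removed was 1.43, against 0.88 before, and met the 2-fold rule.

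The upstream sequences of PLG and F12 are shown as those of the genes with the largest caffeine coefficients. They are the 250 bases before the start site from RefSeq (GRCh38.p14), PLG at chr6:160701994-160702243 on the plus strand and F12 at chr5:177409565-177409814 on the minus strand. Capitals mark the core named for fibrinogen and also TGACG or its reverse CGTCA, part of the cAMP response element.
PLG: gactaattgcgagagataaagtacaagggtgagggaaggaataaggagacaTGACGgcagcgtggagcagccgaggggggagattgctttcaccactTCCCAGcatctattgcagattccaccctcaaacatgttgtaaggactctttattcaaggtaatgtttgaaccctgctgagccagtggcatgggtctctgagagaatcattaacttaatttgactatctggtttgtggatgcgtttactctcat
F12: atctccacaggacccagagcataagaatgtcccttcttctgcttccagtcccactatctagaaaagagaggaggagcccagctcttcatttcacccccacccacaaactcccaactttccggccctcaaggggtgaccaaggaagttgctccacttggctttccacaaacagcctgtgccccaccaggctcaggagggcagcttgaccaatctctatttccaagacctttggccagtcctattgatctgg
PLG was the only one of the 9 genes with the TGACG letters, which 21.2% of 34943 promoters hold. None of these letters was found in the windows of F12 and F7.

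**Figure D4:**
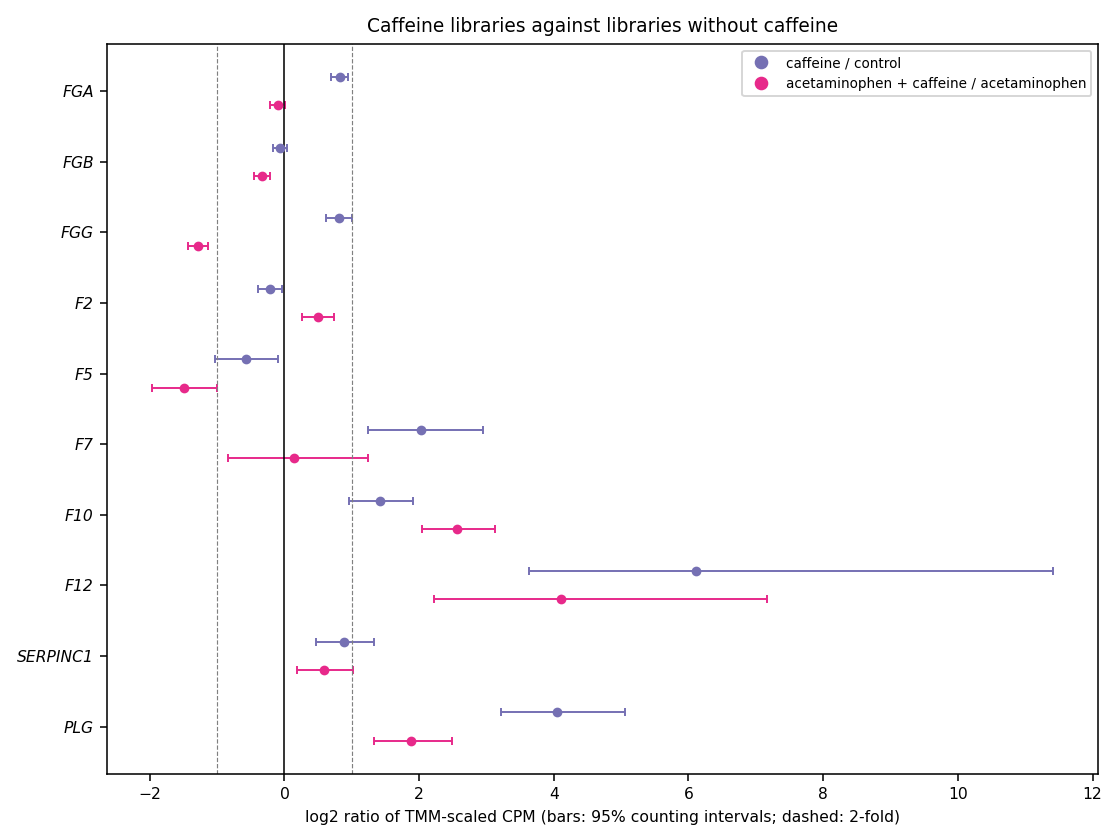
Log2 ratio of each gene for caffeine over control and for acetaminophen with caffeine over acetaminophen (points, 95% counting intervals as bars, dashed lines at 2-fold). F12 and PLG are furthest right for caffeine over control, at ratios of 69.1 and 16.6.

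The caffeine coefficient of F12 was 4.96 log2 (SE 1.02, edgeR adjusted p = 0.0314), and F12 rose with caffeine in 2 of 2 pairs. It was the only 1 of 10 genes to pass, against 0.0823% of all tested genes. The call did not hold without any 1 of the 6 libraries lacking arsenic: the adjusted p in edgeR was 0.527 without the control, 0.127 without acetaminophen, 0.0515 without exosomes, 0.191 without acetaminophen and exosomes, 0.385 without caffeine and 0.365 without acetaminophen and caffeine. It was also lost with DESeq2 size factors (edgeR adjusted p = 0.0743), with protein-coding genes alone (0.0789) and with the GC and length trend removed (0.0916). PLG had a coefficient of 2.88 log2 (SE 0.751, edgeR adjusted p = 0.162), and passed in DESeq2 (adjusted p = 0.0245), as F12 did (adjusted p = 0.0122). PLG also passed in edgeR without arsenic at 5 µM (adjusted p = 0.00560) and without arsenic at 15 µM (adjusted p = 0.0193). F10 had 1.96 log2 (SE 0.739, edgeR adjusted p = 0.528).

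F12 overlaps GRK6 on the opposite strand in GENCODE 29, and no source used here states the strand setting of the counting. GRK6, a kinase gene, had 42.5 CPM with caffeine and 121 CPM with acetaminophen and caffeine. It had 52.2 CPM in the control library and 18.3 CPM in the acetaminophen library. GRK6 was thus below the control in the caffeine library and above its partner in the library of acetaminophen with caffeine, where F12 was higher too, and a sharing of reads was not tested. PLG has near-copies whose reads could be shared with it: over all libraries PLGLB1 had 15 counts, PLGLB2 6, PLGLA 7 and LPA 27, against 1506 for PLG in the caffeine library alone.

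Between caffeine and control, 4 of 10 genes were apart, all higher, against 20.5% of all genes in either direction: F7 at 4.09 times (2.37 to 7.75), F10 at 2.68 times (1.95 to 3.77), F12 and PLG. On the acetaminophen background 5 of 10 were apart, against 33.8% of all genes. F10 at 5.91 times (4.12 to 8.76), F12 at 17.2 times (4.66 to 143) and PLG were higher, while FGG at 0.411 and F5 at 0.357 were lower. The log2 ratio of FGG there was -0.22 with the GC and length trend removed, against -1.28 before. That of F10 was 1.54 against 2.55, and that of F12 2.26 against 3.94. F7 had a ratio of 1.10 on that background (0.559 to 2.36), a log2 ratio of 0.13 that was -0.82 with the trend removed. FGA and FGG stood at 1.76 and 1.75 times control with caffeine alone, and FGB at 0.956.

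Acetaminophen differed in direction between genes against the control, with 5 of 10 ratios above 1 and 5 below. With exosomes in both libraries 2 lay above 1 and 8 below, and with caffeine in both 1 above and 9 below. FGB was lower in each pair, at 0.684 of the control (0.6185 to 0.757). It stood at 0.584 with exosomes in both (0.523 to 0.652) and at 0.568 with caffeine in both (0.541 to 0.596). With the GC and length trend removed, the log2 ratios of FGB were -0.70, -0.89 and -0.57. FGG was at 1.77 times the control (1.52 to 2.07), FGA at 1.29 times (1.16 to 1.43) and PLG at 1.85 times (0.894 to 4.12), and the log2 ratio of FGG was 0.17 with the GC and length trend removed, against 0.82 before. F2 was the only 1 of 10 apart from the control, at 0.409 (0.337 to 0.494), against 25.2% of all genes, and its log2 ratio was -0.25 with the GC and length trend removed, against -1.29 before. In the exosome and caffeine pairs F2 was also lower, at 0.578 and 0.670. Its log2 ratios there were -1.07 and -0.78 with the trend removed. With exosomes present in both libraries 1 of 10 was apart, against 10.5% of all genes, F5 at 0.337 (0.189 to 0.562). With caffeine in both, 4 of 10 were apart, all lower, against 25.6% of all genes: FGG at 0.415, F7 at 0.165 (0.119 to 0.225), F12 at 0.362 and PLG at 0.411. The log2 ratio of FGG there was -0.89 with the trend removed, against -1.27 before.

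The F7 pairs illustrate the spread between backgrounds. F7 had 7.74 CPM with acetaminophen, against 12.6 CPM in the control, then 10.2 CPM with acetaminophen and exosomes, against 21.0 CPM with exosomes, and 8.50 CPM with acetaminophen and caffeine, against 51.5 CPM with caffeine. It was lower with acetaminophen in 3 of 3 pairs, but the counting interval excluded 1 in the caffeine pair alone. With the GC and length trend removed it was lower in the exosome and caffeine pairs, at log2 ratios of -1.19 and -2.82, and at 0.10 against the control, where it had been -0.67. The acetaminophen coefficient of F7 was -1.52 log2 (SE 0.647, edgeR adjusted p = 0.751).

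All 10 acetaminophen coefficients were negative, with a median of -0.57 log2, beside -0.04 over all tested genes. In edgeR 0 of 10 genes passed, against 0.0219% of all genes, and 0 in DESeq2. An unadjusted p under 0.05 in edgeR was found for 1 of 10, against 5.34% of all genes. The acetaminophen by caffeine term and the acetaminophen by exosome term each called 0 of 10 in edgeR, against 0.00% of all genes, and 0 in DESeq2. At an unadjusted p under 0.05 in edgeR each had 0 of 10, against 1.09% and 0.477% of all genes. A difference of F7 between backgrounds is thus not shown.

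**Figure D5:**
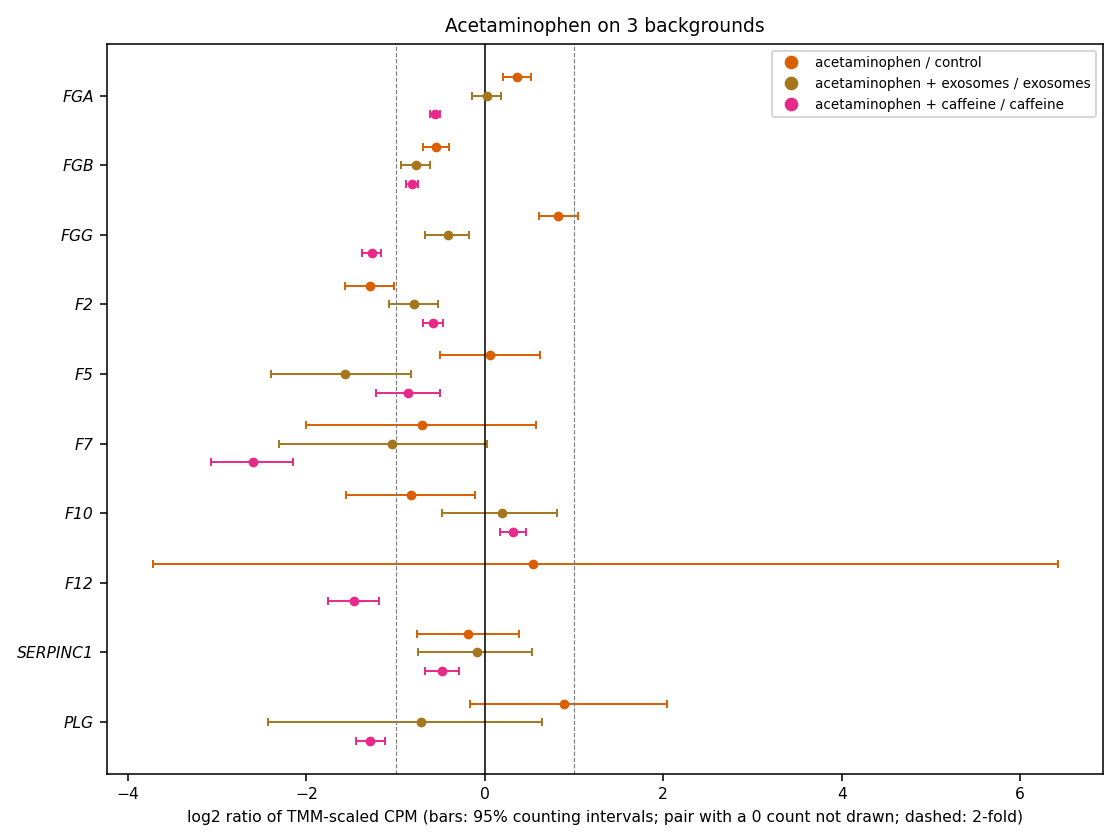
Log2 ratio of each gene for acetaminophen over its partner library without it, on the untreated, exosome and caffeine backgrounds (points, 95% counting intervals as bars, dashed lines at 2-fold, the pair with a 0 count not drawn). F7 on the caffeine background is lowest, at a ratio of 0.165.

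Serum exosomes alone set none of these genes apart: 0 of 10 met the rule against the control, against 5.12% of all genes. The largest ratio with at least 10 counts in each library was that of F7 at 1.67 (0.914 to 3.28), and FGA, FGB and FGG stood at 0.997, 1.05 and 1.16. On the acetaminophen background 3 of 10 were apart, all lower, against 19.2% of all genes: FGG at 0.491, F5 at 0.433 and PLG at 0.324 (0.0976 to 0.849). With the GC and length trend removed, 0 of 10 were apart there. The exosome term called 0 of 10 genes in edgeR, against 0.00% of all genes, and 0 in DESeq2. At an unadjusted p under 0.05 in edgeR it had 0 of 10, against 0.620% of all genes.

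Of 43 other genes of clotting, fibrinolysis and their liver regulators, 42 were tested and 0 were called for acetaminophen, exosomes, caffeine or arsenic in edgeR. Over all tested genes these terms called 0.0219%, 0.00%, 0.0823% and 0.494%. Their arsenic coefficients were positive for 14 and negative for 28, with a median of -0.40 log2, beside 0.07 over all genes. For acetaminophen 12 were positive and 30 negative, with a median of -0.53 log2, beside -0.04. For caffeine 19 were positive and 23 negative, with a median of -0.03 log2, beside 0.12.

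The 15 µM arsenic term called 2 of the 42 in edgeR, both higher, against 1.09% of all tested genes in either direction. PLAUR, the urokinase receptor, had 76.2 CPM at 15 µM, 0.853 CPM at 5 µM and 5.57 CPM with copper, against 4.84 CPM in the control (edgeR adjusted p = 0.000239). SOCS3, a feedback inhibitor of interleukin-6 signalling, had 88.1 CPM at 15 µM, 9.38 CPM at 5 µM and 11.9 CPM with copper, against 4.84 CPM in the control (edgeR adjusted p = 0.0219). The 15 µM library, lowest in all 3 fibrinogen chains, was thus the highest in both.

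Other regulators and inhibitors are given as values. IL6R, the interleukin-6 receptor, had 182 CPM with arsenic at 5 µM, 372 CPM at 15 µM and 99.2 CPM with copper, against 20.3 CPM in the control. It was highest at 15 µM. SERPIND1, heparin cofactor II, lay below the control in all 3, at 13.6 CPM at 5 µM, 8.99 CPM at 15 µM and 45.3 CPM with copper, against 116 CPM. HNF4A, a liver factor outside the naming rule and chosen after its values were seen, had 199.6, 152 and 231 CPM, against 409 CPM in the control. It does not stand for the liver regulators as a list. Of these 9 genes, 6 had a positive arsenic coefficient and 3 a negative one, with a median of 0.26 log2.

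For caffeine, SERPINF2, the plasmin inhibitor, had 479 CPM with caffeine and 299 CPM with acetaminophen and caffeine, against 208 CPM in the control library, and 31.0 CPM in the acetaminophen library. PROC, protein C, had 105 CPM with caffeine and 44.4 CPM with acetaminophen and caffeine, against 38.7 CPM in the control library, and 7.04 CPM in the acetaminophen library. Both were higher with caffeine in 2 of 2 pairs, but neither was called (edgeR adjusted p = 0.543 for SERPINF2 and 0.519 for PROC). Both are GC-rich (61.5% and 62.0% GC), and their ratios with the GC and length trend removed are not given.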

How the data were processed

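Ribosomal RNA-depleted total RNA of 9 HuH-7 cultures was sequenced, 1 library per condition. The files deposited by the authors hold unnormalized counts of reads for each Ensembl gene. Alignment used TopHat2 2.0.13 and counting HTSeq 0.6.1, with GRCh37 as the build, per the submitters' processing notes. The annotation release, strand setting and any read filter were not given in the sources used here. HTSeq summary lines (42.26% to 70.27% of reads) were left out of library sizes. Symbols came from a reference list of gene names, else from RefSeq or GENCODE 29 (52526 of 63677 identifiers matched). Exon lengths and GC content came from GENCODE 29, and upstream sequences from RefSeq.

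The filter asked for 1 CPM or more in 2 or more libraries, and TMM scaling followed. With 5 coefficients the edgeR model kept 4 residual degrees of freedom, and each extra term left 3. The threshold was 0.05 on Benjamini-Hochberg adjusted p-values. The SE is the absolute log2 fold change divided by the square root of F, not an SE estimated by the model. Ratios for calling a gene apart used 0.5 prior counts. GC and length trends were removed by loess per library. The members and gene lists were chosen with earlier results of these data known. All 10 members were named; of the other clotting genes at most 4 per role, those with the largest coefficients among genes averaging at least 5 CPM, apart from some that are not reported here. The fit was run on simulated counts with additive effects and a dispersion smaller than the 0.283 of the real fit. That run therefore does not show how the fit performs on these data. R 4.3.3, edgeR 4.0.16, DESeq2 1.42.0, Python 3.11.15, scipy 1.17.1 and pandas 2.3.3 were used.

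Counts behind the named genes ranged from 0 (F12, acetaminophen with exosomes) to 7683 (FGA, caffeine). Alternatives were DESeq2, its size factors, no count filter, protein-coding genes alone, the GC and length correction, libraries left out, other prior counts and folds, and chain shares per length.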

Additional observations from a re-analysis of the deposited data

How the results depend on the processing

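The caffeine term called 1 of the 10 genes. It called 0 with DESeq2 size factors and 0 with protein-coding genes alone, 2 with DESeq2, 2 without the acetaminophen and arsenic 5 µM libraries, 2 in the 6 libraries without arsenic, and 0 to 2 with 1 library left out. F12 was called in 7 of 16 alternatives and kept its direction in all 16. With the GC and length trend removed PLG had an edgeR adjusted p of 0.0232. The arsenic term called 0, but 1 with no count filter, 1 with DESeq2 and 0 to 2 with 1 library left out. The 15 µM term called 0, but 1 with DESeq2 and 1 with the trend removed. The cause was not tested. Over all tested genes DESeq2 called 51 for caffeine, 170 for arsenic and 96 for the 15 µM term. For the other alternatives no share over all genes is given. The coefficients given in the text kept their direction in each alternative run.

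Removing the GC and length trend changed the count of genes apart to 0 for acetaminophen over control (1 before), 3 for acetaminophen with exosomes over exosomes (1 before) and 0 for acetaminophen with exosomes over acetaminophen (3 before). It also changed 6 to 4 for arsenic at 15 µM over 5 µM (FGB and F2 lost), 4 to 5 for caffeine over control (SERPINC1 gained), 5 to 4 for arsenic at 5 µM over control (F2, F10 and PLG lost, FGG and F5 gained), 5 to 4 for arsenic at 15 µM over control (SERPINC1 lost), 3 to 2 for arsenic with copper over control (FGB lost), 4 to 3 and 5 to 4 for acetaminophen with caffeine over caffeine and over acetaminophen (FGG lost in both), and swapped F2 for FGA for arsenic with copper over arsenic. A fold of 1.5 gave 3 for acetaminophen over control (1 at a fold of 2) and 3 for acetaminophen with exosomes over exosomes (1). It gave 7 for caffeine over control (4) and 5 for arsenic with copper over arsenic (3). The shares of all genes apart at this fold, or with the trend removed, are not given. These counts thus have no background to be read against. Of 120 ratios, the trend removal moved 47 beyond their counting interval, DESeq2 size factors 6, and protein-coding genes alone and a prior count of 2 moved 0. DESeq2 size factors shifted log2 ratios by -0.18 to 0.15 and protein-coding genes alone by -0.15 to 0.11.

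Per transcript length, the FGA share was 35.1% with acetaminophen, 25.7% with exosomes, 36.2% with acetaminophen and exosomes, 37.3% with caffeine, 43.5% with acetaminophen and caffeine, 17.3% with arsenic at 5 µM and 18.4% with arsenic and copper, against 27.1% in the control. No paired analysis was possible because each condition has 1 library, so there is no replicate number to block on; the additive model itself compares libraries across backgrounds, and the 6 libraries without arsenic were fitted alone. Depth limits F12 most, with 1 count in the control.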

Other observations

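Genes with profiles closest to the clotting genes were ranked by the mean absolute difference of centred log2 CPM over the 9 libraries, among 11142 genes averaging at least 5 CPM, as a description with no test. For the mean of FGA, FGB and FGG they were MTARC1 (0.306), C2orf72 (0.311), B4GAT1 (0.321), GNPAT (0.321) and CDCA7L (0.349), against a median of 1.09 over all these genes. MTARC1, a mitochondrial reductase gene, had 23.0 CPM with arsenic at 5 µM, 7.19 CPM at 15 µM and 29.7 CPM with copper, against 71.6 CPM in the control.

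For F12 the closest were KANK4 (0.635), PTGIS (0.672), LRP2 (0.707), AQP10 (0.732) and PCK1 (0.738), against a median of 1.58. PCK1, the gluconeogenic enzyme, had 37.2 CPM with caffeine and 4.91 CPM with acetaminophen and caffeine, and 0 counts in the control and with acetaminophen. LRP2, the endocytic receptor megalin, had 129 CPM with caffeine and 87.7 CPM with acetaminophen and caffeine, against 2.90 CPM in the control library, and 9.15 CPM in the acetaminophen library. The 9 libraries differ in depth and make-up, which all profiles share.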
